A study of Mus musculus with 8 samples.

Results

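The 10 genes described here are the cytosolic heat shock genes Hspa1a, Hspa1b, Hspa8, Hsph1, Dnaja1, Dnajb1, Hspb1, Cryab, Hsp90aa1 and Chordc1, out of 18193 genes measured. They were taken up for the low values of Hspa1a and Hspa1b with the PGC-1α construct in cells without DFO, so their values in that contrast are a description and carry no test. Expression was measured on 8 Affymetrix whole-genome mouse arrays, on which a gene is read by 1 or more probe sets of short oligonucleotides. All samples were C2C12 myotubes, multinucleated fibres made by fusion of a mouse myoblast line kept in little serum. Every culture spent 3 days in 2% dialyzed serum, then received an adenovirus, and gave RNA 3 days later. The 4 groups were GFP-PGC-1α virus with 100 µM deferoxamine (DFO, an iron chelator), GFP virus with 100 µM DFO, GFP-PGC-1α virus alone and GFP virus alone, with 2 arrays each, which the series' design text calls biological duplicates. PGC-1α is a coactivator that raises the transcription of mitochondrial and oxidative genes. No group went without virus, so an effect of infection itself is shared by all groups.

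Heat shock proteins of the HSP70 class bind unfolded stretches of protein and release them on ATP turnover. J-domain proteins such as DNAJA1 and DNAJB1 deliver substrates to HSP70 and speed its ATPase, and HSP110 proteins such as HSPH1 exchange its nucleotide. HSP90 acts on nearly folded clients together with co-chaperones, of which CHORDC1 is one, and small heat shock proteins such as HSPB1 and αB-crystallin (Cryab) hold unfolding proteins without ATP. The inducible genes are switched on by heat shock factor 1, which binds repeats of GAA and its reverse complement TTC. In muscle the small heat shock proteins associate with the contractile apparatus and the cytoskeleton.

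RefSeq promoter windows (GRCm38.p6, 250 bases before to 50 bases after a start site) were found for 7 of the 10 genes, and none was used for Hspa8, Cryab and Hsp90aa1. The windows were searched on both strands for GAANNTTC and TTCNNGAA, each of which reads the same on either strand, and for longer runs of 3 alternating units, each 2 bases from the next, which contain the shorter ones. Of the 7 genes, 6 had a shorter motif, which 15.1% of all 32851 windows and 17.0% of all 27025 genes with a window also had. Hsph1 and Chordc1 had a longer one, found in 0.603% of windows and 0.662% of genes. Neither of the 2 windows of Dnajb1 held these letters. Dnaja1 had 3 windows, of which 1 held a match. The stretches around the matches follow, 5′ to 3′ on the gene's strand, with the GAA and TTC units of each match in capitals.
Hspa1a, chr17:34972201-34972290, minus strand: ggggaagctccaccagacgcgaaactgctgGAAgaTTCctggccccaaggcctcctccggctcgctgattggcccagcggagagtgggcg
Hspa1b, chr17:34959283-34959372, minus strand: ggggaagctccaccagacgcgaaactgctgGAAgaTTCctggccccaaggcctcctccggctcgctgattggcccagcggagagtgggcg
Hsph1, chr5:149636287-149636399, minus strand: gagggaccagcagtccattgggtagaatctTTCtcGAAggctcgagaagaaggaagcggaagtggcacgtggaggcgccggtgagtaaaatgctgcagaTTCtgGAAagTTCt
Dnaja1, chr4:40722314-40722403, plus strand: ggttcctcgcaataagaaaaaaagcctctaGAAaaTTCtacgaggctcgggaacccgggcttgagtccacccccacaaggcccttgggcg
Hspb1, chr5:135887772-135887861, plus strand: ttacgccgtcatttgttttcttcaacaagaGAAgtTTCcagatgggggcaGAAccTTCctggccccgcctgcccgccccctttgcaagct
Chordc1, chr9:18292227-18292316, plus strand: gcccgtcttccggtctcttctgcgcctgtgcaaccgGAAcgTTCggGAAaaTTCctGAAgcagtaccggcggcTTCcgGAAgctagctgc
The stretches of Hspa1a and Hspa1b are the same letters, and their whole windows were identical at 296 of 300 positions (98.7%). In Chordc1 the units alternate over a run that begins just before the start site. A match describes letters in the window, and binding was not measured.

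For Ppargc1a, which codes for PGC-1α, the probe set read 7930 and 7710 intensity units with GFP-PGC-1α+DFO against 26.6 and 88.1 with GFP+DFO, and 7211 and 7036 with GFP-PGC-1α against 28.6 and 37.3 with GFP. Array medians lay between 59.5 and 62.8, and Pearson's r over all probe sets was 0.942 to 0.962 between arrays of one group, where probe sets do not count as replicates. All 12 myotube markers were measured, and their summed intensity was 20156 to 21459 with GFP-PGC-1α+DFO, 29261 to 29398 with GFP+DFO, 60606 to 60754 with GFP-PGC-1α and 69570 to 73062 with GFP. The lowest single reading of a marker was 7.72, with GFP-PGC-1α+DFO. On each DFO array 2 of the 12 were below the median level of all genes, 125.0, and without DFO none was. The 9 measured markers of undifferentiated and cycling cells summed to 1312 to 1540 with GFP-PGC-1α+DFO, 1146 to 1167 with GFP+DFO, 1719 to 1822 with GFP-PGC-1α and 1714 to 1818 with GFP. On each DFO array 6 of the 9 were below the median level of all genes, and on each array without DFO 5 were. In GFP-PGC-1α+DFO against GFP+DFO 4 of the 9 were lower and 3 higher without overlap of the groups, where 34.5% of all genes were lower. The log2 difference there was 1.4993 for Id3, 0.8025 for Id1 and -0.623 for Cdk1. In GFP-PGC-1α+DFO against GFP-PGC-1α 4 were lower and 3 higher too, beside 30.6% and 30.1% of all genes, with 1.0504 for Id1 and -3.2597 for Myf5. In GFP+DFO against GFP 5 were lower and 1 higher, beside 33.0% and 30.9%, with -1.924 for Id3 and -1.8271 for Myf5. The 5′ to 3′ signal ratio of β-actin, which drops as RNA degrades, read 0.753 and 0.811 with GFP-PGC-1α+DFO, 0.868 and 0.859 with GFP+DFO, and 0.897 to 0.921 without DFO. The 24 poly-A spike-in probe sets, which read control RNA added during preparation, had a mean log2 intensity of 8.04 with GFP-PGC-1α+DFO, 8.66 with GFP+DFO, 8.48 with GFP-PGC-1α and 8.66 with GFP. Scaling arrays to them moved every difference between GFP-PGC-1α+DFO and GFP+DFO by 0.62 on the log2 scale, those between GFP-PGC-1α+DFO and GFP-PGC-1α by 0.44, and those between GFP-PGC-1α and GFP by 0.18. The part of the markers, of the 5′ to 3′ ratio and of the spike-in level in the results below was not tested. In bulk RNA, fewer cells of a type and less RNA per cell cannot be told apart.

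With DFO in both arms, all 10 genes had lower intensity on the GFP-PGC-1α+DFO arrays than on the GFP+DFO arrays, with no overlap of the 2 groups, as 34.5% of all genes did. These 4 arrays are not the ones the genes were chosen on. limma, fitted to all 8 arrays with Benjamini-Hochberg adjustment over all genes and a threshold of 0.05, called 7 of the 10 as fallen and none as risen, against 12% of all genes called lower and 6.93% called higher. Those that fell were Hspa1a, Hspa1b, Hsph1, Dnaja1, Hspb1, Cryab and Chordc1, while Hspa8, Dnajb1 and Hsp90aa1 did not pass. A fit to only the 9096 genes above the median level, where all 10 lie, called 3137 lower and 1517 higher. It called the same 7 of the 10. The spread was pooled over all 8 arrays, and a fit to only the 4 arrays compared called Hspa1b, Hspb1 and Chordc1. The median log2 difference of the 10 was -0.67, beside -0.05 over all genes. Scaled to the spike-ins, these medians were -0.05 and 0.57, and only Hspa1a was still called. The median of the 10 minus that of all genes was -0.62 on either scale, which this scaling cannot change, since it moves every gene alike. The count of 7 became 4 without GFP-PGC-1α+DFO replicate 2, 3 without GFP+DFO replicate 1 and 4 without GFP+DFO replicate 2. Hspa1b, Hspb1 and Chordc1 passed in each fit that left out 1 of the 8 arrays. Of the 12 myotube markers 9 fell and 1 rose in the same contrast, with a median of -0.75, and 5 fell without either GFP+DFO array, while on the spike-in scale 2 fell and 2 rose.

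**Figure D1:**
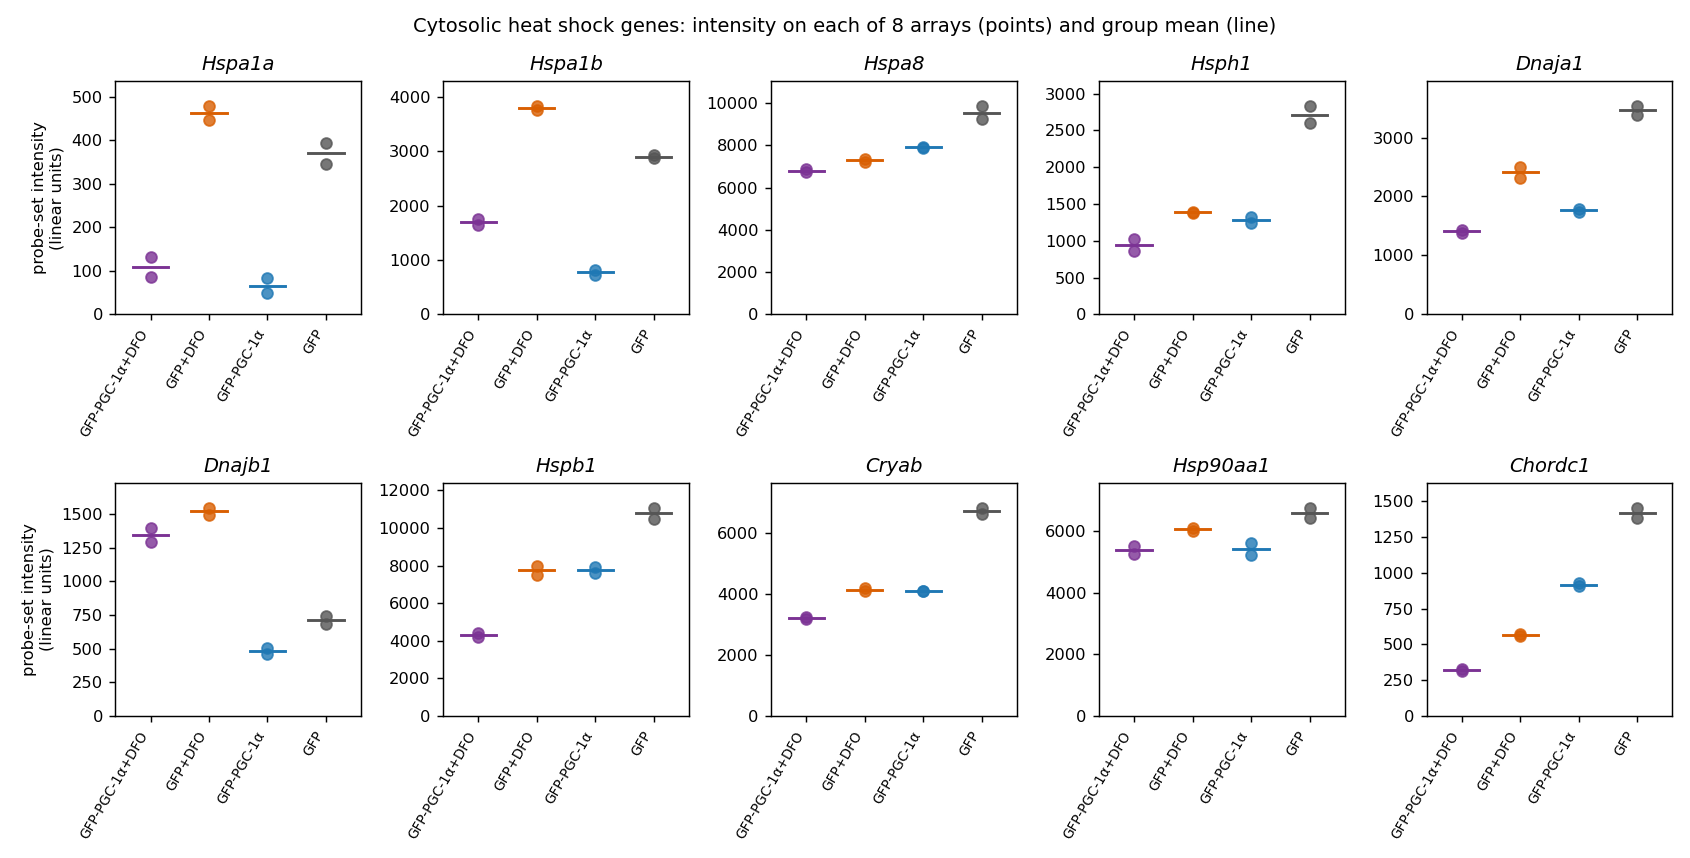
Probe-set intensity (linear units, axis from 0) of the 10 cytosolic heat shock genes in GFP-PGC-1α+DFO, GFP+DFO, GFP-PGC-1α and GFP myotubes, each point 1 array and each line the mean of the 2 arrays of a group. Hspa1a and Hspa1b are lowest with GFP-PGC-1α and highest with GFP+DFO, while 7 of the other genes have their highest points with GFP and Dnajb1 has its highest with GFP+DFO.

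Hspa1a and Hspa1b are neighbouring, stress-inducible HSP70 genes that code for nearly the same protein, so a probe set named for one may also read the other. Hspa1a, read by 1 probe set, had 132 and 86.9 intensity units with GFP-PGC-1α+DFO against 448 and 479 with GFP+DFO. Without DFO it had 48.1 and 83.6 with GFP-PGC-1α against 347 and 394 with GFP. All 4 arrays with the construct were lower than all 4 with GFP alone, and the 2 construct groups lay next to each other without overlap.

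In the DFO arms the fall of Hspa1a with the construct was 4.32-fold, a log2 difference of -2.11 ± 0.32 (SE, limma adjusted p = 0.0123). The construct readings behind it, 132 and 86.9, lay near or below the median level of all genes, 125.0. Those without DFO, 48.1 and 83.6, lay below it, so both falls rest on dim values. The call ended without GFP-PGC-1α+DFO replicate 2 (adjusted p = 0.0537), GFP+DFO replicate 1 (0.0763) or GFP+DFO replicate 2 (0.0784), and the log2 difference then ranged from -2.41 to -1.81 over all 8 fits that left out an array. On the spike-in scale it was -1.49 (adjusted p = 0.0404). In the contrast used to choose the genes, GFP-PGC-1α against GFP, the log2 difference was -2.54 ± 0.32.

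Hspa1b had 1747 and 1648 intensity units with GFP-PGC-1α+DFO against 3833 and 3758 with GFP+DFO, and 815 and 732 with GFP-PGC-1α against 2925 and 2882 with GFP. Its 4 groups were separate from each other in the order GFP+DFO, GFP, GFP-PGC-1α+DFO, GFP-PGC-1α, from high to low, the same order as the group means of Hspa1a. It fell 2.24-fold with the construct in the DFO arms (log2 difference -1.16 ± 0.09, adjusted p = 0.00201), and the difference was -0.55 on the spike-in scale (adjusted p = 0.0522). The other 2 probe sets of Hspa1b had log2 differences of -1.21 and -1.38 in the same contrast. Without DFO the difference was -1.91 ± 0.09.

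With DFO, Hspa1b was higher in both arms. It rose 2.20-fold with GFP-PGC-1α+DFO against GFP-PGC-1α (log2 difference 1.14 ± 0.09, adjusted p = 0.00104), and its other 2 probe sets had 1.08 and 1.01. With GFP+DFO against GFP it rose by 0.39 ± 0.09 (adjusted p = 0.0343), a call that ended in 6 of the 8 fits without 1 array, with adjusted p up to 0.164 without GFP+DFO replicate 1. Its other 2 probe sets had 0.27 and 0.28 in the GFP arms. With every probe set on its own, none of the 3 passed there (limma adjusted p = 0.0568, 0.137 and 0.140). The log2 differences of Hspa1a were 0.76 ± 0.32 between the construct groups (adjusted p = 0.158) and 0.33 ± 0.32 between the GFP groups (adjusted p = 0.543), and neither passed. Both DFO contrasts share arrays with the contrast used to choose the genes: the first the 2 GFP-PGC-1α arrays, and the second the 2 GFP arrays. The difference between the 2 construct effects, 0.75 ± 0.13 for Hspa1b and 0.43 ± 0.46 for Hspa1a, was not tested, since it holds the choosing contrast.

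Hspa8 codes for the constitutive HSP70 of the cytosol, and Hsph1 for its HSP110 partner. Hspa8 had 6858 and 6719 intensity units with GFP-PGC-1α+DFO, 7225 and 7356 with GFP+DFO, 7881 and 7944 with GFP-PGC-1α, and 9861 and 9226 with GFP. The groups did not overlap, but the steps between them were small. With the construct in the DFO arms its log2 difference was -0.10 (95% interval -0.30 to 0.10, adjusted p = 0.452), and without DFO it was -0.27 ± 0.08. Hspa8 fell with GFP+DFO against GFP by 0.39 ± 0.08 (adjusted p = 0.0222), a call kept in 2 of the 8 fits without 1 array (highest adjusted p = 0.128, without GFP+DFO replicate 1). Between GFP-PGC-1α+DFO and GFP-PGC-1α the difference was -0.22 ± 0.08 (adjusted p = 0.107).

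Hsph1 had 1025 and 858 intensity units with GFP-PGC-1α+DFO, 1381 and 1390 with GFP+DFO, 1244 and 1328 with GFP-PGC-1α, and 2833 and 2601 with GFP. The GFP arrays stood clear above every other array, and the GFP+DFO and GFP-PGC-1α groups lay close together. With the construct and DFO it fell to 67.7% of the GFP+DFO level (log2 difference -0.56 ± 0.12, adjusted p = 0.0301), and without DFO the GFP-PGC-1α level was 47.4% of the GFP level. The first call held only without GFP-PGC-1α+DFO replicate 1, and adjusted p lay between 0.0538 and 0.146 without each other array, while the second probe set had -0.69 ± 0.10. With DFO in the GFP arms Hsph1 fell by 0.97 ± 0.12 (adjusted p = 0.00413, kept in 8 of 8 fits). In the construct arms the difference was -0.46 ± 0.12 (adjusted p = 0.0437), a call again kept only without GFP-PGC-1α+DFO replicate 1, with adjusted p up to 0.160 otherwise.

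Of the J-domain genes, Dnaja1 had 1438 and 1379 intensity units with GFP-PGC-1α+DFO, 2506 and 2319 with GFP+DFO, 1795 and 1742 with GFP-PGC-1α, and 3535 and 3387 with GFP. On this probe set, its brightest, all 4 construct arrays were below all 4 GFP-only arrays, as for the Hspa1 pair. On the other 2 probe sets of Dnaja1 the GFP-PGC-1α and GFP+DFO arrays overlapped. They read 962 and 1058 against 980 and 1099 on the one, and 648 and 648 against 678 and 646 on the other. The fall with the construct in the DFO arms was 1.71-fold (log2 difference -0.78 ± 0.09, adjusted p = 0.00496, and 0.0509 without GFP+DFO replicate 1), and its other 2 probe sets had -0.96 and -1.33. Without DFO the difference was -0.97 ± 0.09. With DFO in the GFP arms Dnaja1 fell by 0.52 ± 0.09 (adjusted p = 0.0109), a call that ended without GFP replicate 1 (0.0584), GFP+DFO replicate 1 (0.0506) or GFP+DFO replicate 2 (0.0821). In the construct arms it fell by 0.33 ± 0.09 (adjusted p = 0.0448), a call lost in each fit without 1 array (0.0707 to 0.180), while the other 2 probe sets had -0.92 and -1.30 there.

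Dnajb1 had a different pattern, with 1393 and 1293 intensity units with GFP-PGC-1α+DFO, 1545 and 1493 with GFP+DFO, 504 and 463 with GFP-PGC-1α, and 743 and 684 with GFP. All 4 DFO arrays were above all 4 arrays without DFO. With DFO, Dnajb1 rose 2.78-fold in the construct arms (log2 difference 1.47 ± 0.10, adjusted p = 0.000582) and 2.13-fold in the GFP arms (1.09 ± 0.10, adjusted p = 0.00162), and both calls were kept in 8 of 8 fits without 1 array. The second probe set had 0.90 and 0.62 in these contrasts. With the construct the log2 difference was -0.18 in the DFO arms (95% interval -0.42 to 0.07, adjusted p = 0.284) and -0.56 ± 0.10 without DFO. In the DFO arms the second probe set had -0.37 ± 0.09 with the construct (limma adjusted p = 0.0529 over all probe sets), without overlap of the groups.

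**Figure D2:**
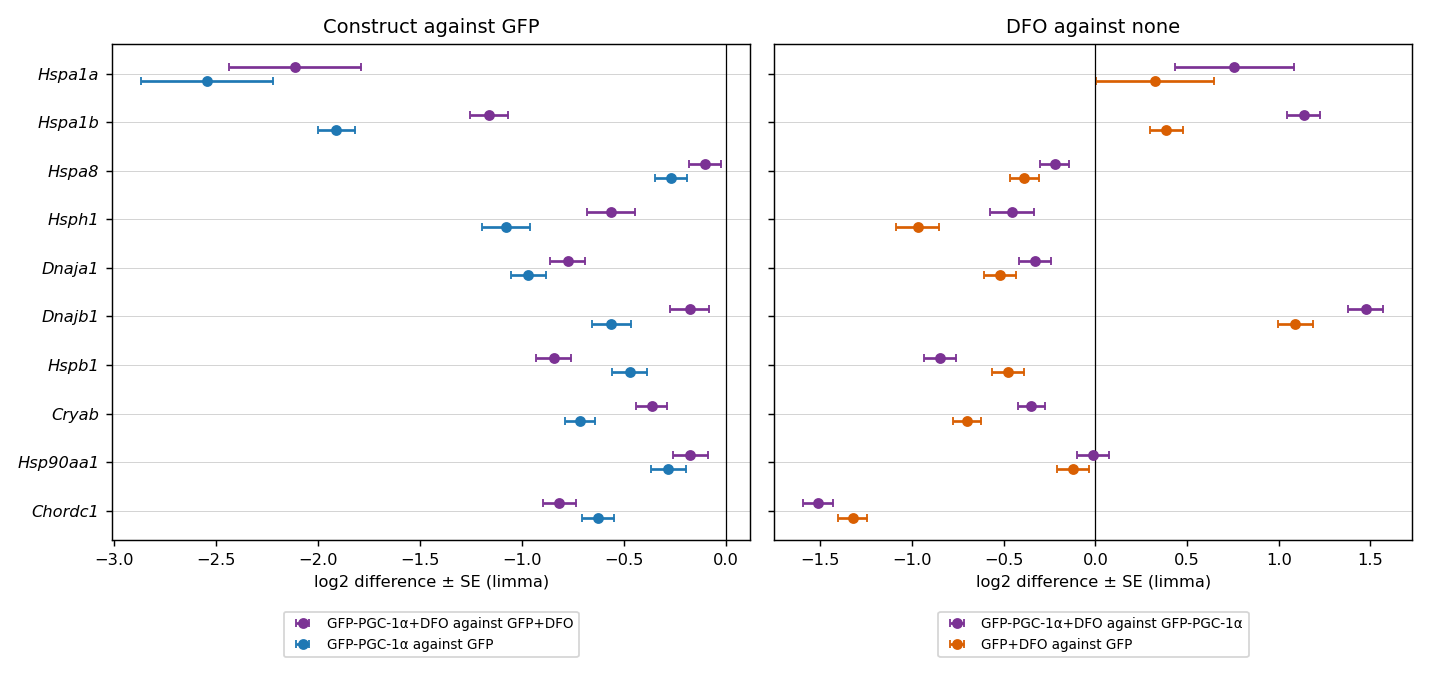
Log2 differences (points) and limma SE (bars) of the 10 genes, on the left for the construct against GFP with and without DFO and on the right for DFO against no DFO with and without the construct. All 20 points on the left are below 0, from -2.54 to -0.10, and on the right Hspa1a, Hspa1b and Dnajb1 are above 0 and the other 7 genes below it; on the spike-in scale Hspa8, Hsph1, Dnajb1, Cryab and Hsp90aa1 are above 0 for the construct with DFO, and Hspa8, Dnaja1, Cryab and Hsp90aa1 for DFO with the construct.

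The small heat shock genes were lowest where construct and DFO came together. Hspb1 had 4223 and 4410 intensity units with GFP-PGC-1α+DFO, 7502 and 8003 with GFP+DFO, 7630 and 7914 with GFP-PGC-1α, and 11076 and 10487 with GFP. The middle 2 groups overlapped, and the other 2 stood clear of them on either side. The fall with the construct was 1.80-fold in the DFO arms (log2 difference -0.84 ± 0.09, adjusted p = 0.0039), and the difference was -0.47 ± 0.09 without DFO. With DFO, Hspb1 fell by 0.85 ± 0.09 in the construct arms (adjusted p = 0.00216), and it fell by 0.48 ± 0.09 in the GFP arms (adjusted p = 0.0146). The last call ended without GFP replicate 1 (0.0729), GFP+DFO replicate 1 (0.101) or GFP+DFO replicate 2 (0.0672). On the spike-in scale the difference with the construct in the DFO arms was -0.23 (adjusted p = 0.400).

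Cryab had 3183 and 3240 intensity units with GFP-PGC-1α+DFO, 4096 and 4178 with GFP+DFO, 4097 and 4082 with GFP-PGC-1α, and 6820 and 6609 with GFP. As with Hspb1, the GFP+DFO and GFP-PGC-1α groups overlapped, between a lower group with both and a higher group with neither. Cryab fell to 77.6% with the construct in the DFO arms (log2 difference -0.37 ± 0.08, adjusted p = 0.0288), a call lost in each of the 8 fits without 1 array (0.0524 to 0.154) and turned to 0.25 on the spike-in scale. Without DFO the GFP-PGC-1α level was 60.9% of the GFP level. With DFO, Cryab fell by 0.70 ± 0.08 in the GFP arms (adjusted p = 0.00286, kept in 8 of 8 fits), and it fell by 0.35 ± 0.08 in the construct arms (adjusted p = 0.0249). The call in the construct arms held in 2 of 8 fits, those without GFP replicate 1 or GFP replicate 2, and reached adjusted p = 0.114 without GFP-PGC-1α replicate 1.

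Hsp90aa1, the inducible cytosolic HSP90, had 5512 and 5248 intensity units with GFP-PGC-1α+DFO, 6116 and 6026 with GFP+DFO, 5627 and 5238 with GFP-PGC-1α, and 6765 and 6442 with GFP. On this probe set, its brightest, the 2 construct groups overlapped. No tested contrast passed on it: the log2 differences were -0.17 with the construct in the DFO arms (95% interval -0.39 to 0.04, adjusted p = 0.238), -0.12 with DFO in the GFP arms (-0.34 to 0.10, adjusted p = 0.386) and -0.01 with DFO in the construct arms (-0.23 to 0.20, adjusted p = 0.935). The call with the construct passed with eBayes' trend and robust options (adjusted p = 0.0162). Of the other 2 probe sets above the median level of all genes, with DFO the one had 0.07 in the GFP arms and 0.34 in the construct arms (adjusted p = 0.101 over all probe sets), and the other -0.37 (0.0428) and -0.24 (0.128). Without DFO the difference of the brightest with the construct was -0.28 ± 0.09.

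Chordc1, an HSP90 co-chaperone gene, had 328 and 316 intensity units with GFP-PGC-1α+DFO, 574 and 559 with GFP+DFO, 906 and 930 with GFP-PGC-1α, and 1455 and 1383 with GFP. Its 4 groups were separate, and both DFO groups lay below both groups without DFO, the reverse of Dnajb1. With DFO it fell 2.85-fold in the construct arms (log2 difference -1.51 ± 0.08, adjusted p = 0.000316) and 2.50-fold in the GFP arms (-1.32 ± 0.08, adjusted p = 0.000546). With the construct it fell 1.76-fold in the DFO arms (-0.82 ± 0.08, adjusted p = 0.00352), and the difference without DFO was -0.63 ± 0.08. The calls of Chordc1 in all 3 tested contrasts were kept in 8 of 8 fits without 1 array, but on the spike-in scale its difference with the construct was -0.20 (adjusted p = 0.399).

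With DFO the 10 genes did not all move one way. In the GFP arms 6 fell (Hspa8, Hsph1, Dnaja1, Hspb1, Cryab and Chordc1) and 2 rose (Hspa1b and Dnajb1), against 12.5% and 11.8% of all genes called in these directions. The median log2 difference was -0.43, beside -0.02 over all genes. Between the construct arms 5 fell (Hsph1, Dnaja1, Hspb1, Cryab and Chordc1) and the same 2 rose, against 14.2% and 11.4% of all genes, with a median of -0.27 beside 0.01. Among only the 9096 genes above the median level, 2566 fell and 2505 rose in the GFP arms, with 6 and 2 of the 10. In the construct arms 2885 of these genes fell and 2263 rose, with 6 and 3 of the 10. The genes called on the spike-in scale were Hsph1, Dnajb1 and Chordc1 in the GFP arms, and Hspa1b, Dnajb1 and Chordc1 in the construct arms, where Dnaja1 (0.11) and Cryab (0.09) were above 0. The count of 8 in the GFP arms became 4 without GFP replicate 1, GFP+DFO replicate 1 or GFP+DFO replicate 2. The count of 7 in the construct arms became 4 without GFP-PGC-1α replicate 1 or 2, GFP-PGC-1α+DFO replicate 2, or GFP+DFO replicate 1 or 2. Myotube markers moved with DFO as well: 10 of 12 fell in the GFP arms and 11 of 12 in the construct arms, with log2 differences of Myog of -5.08 ± 0.13 (adjusted p = 0.000139) and -6.30 ± 0.13 (adjusted p = 6.4e-05).

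In the contrast that chose the genes, GFP-PGC-1α against GFP, all 10 were lower without overlap of the groups, as were 35.1% of all genes, with log2 differences from -2.54 (Hspa1a) to -0.27 (Hspa8) and a median of -0.67, beside -0.08. limma called 4.77% of all genes lower and 4.96% higher in it. The difference between the construct effect with and without DFO, not tested here, was positive for 8 of the 10 genes, and it was -0.37 ± 0.12 for Hspb1 and -0.19 ± 0.11 for Chordc1. On the spike-in scale it was positive for all 10 (0.067 for Hspb1 and 0.25 for Chordc1), and with the mean of all probe sets for 7, with -0.19 for Dnaja1. This difference holds the contrast that chose the genes, where low values push it up, so no conclusion is drawn from these sign counts.

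**Figure D3:**
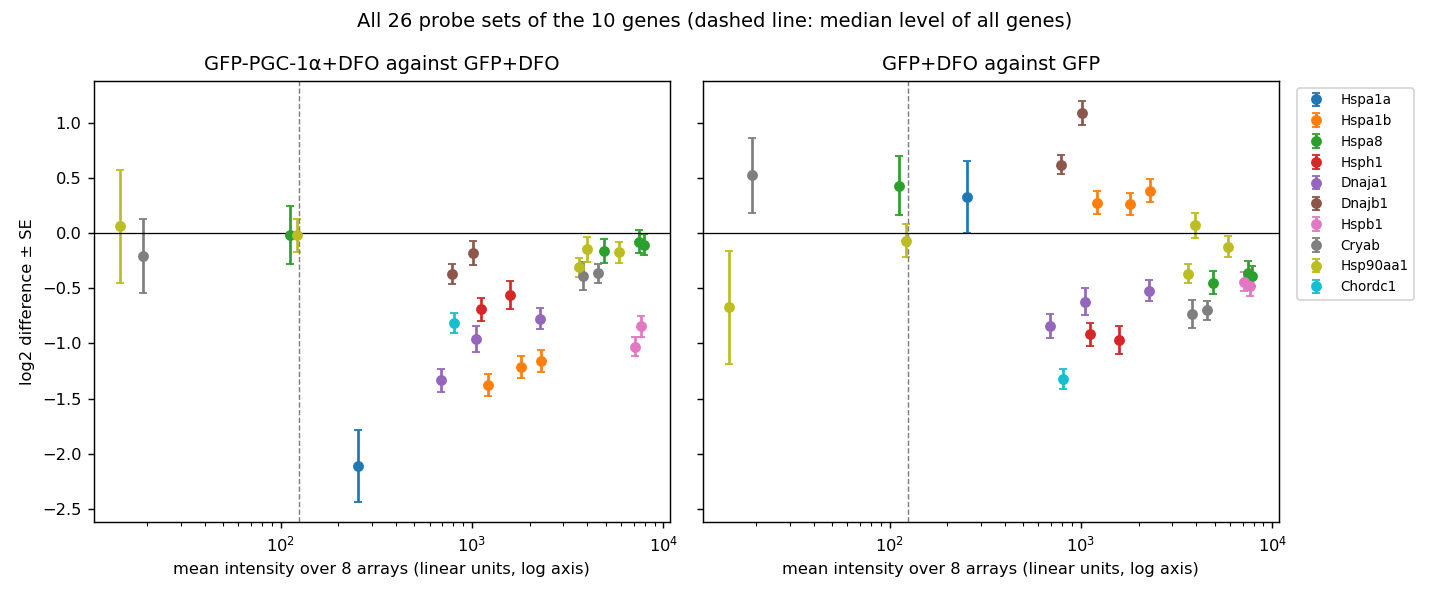
Each of the 26 probe sets of the 10 genes, with mean intensity over the 8 arrays on a log axis and the log2 difference with limma SE (bars), for GFP-PGC-1α+DFO against GFP+DFO (left) and GFP+DFO against GFP (right); the dashed line is the median level of all genes, 125.0. To the right of that line all 22 probe sets are below 0 on the left panel, from -2.11 to -0.08, and on the right panel the 6 of Hspa1a, Hspa1b and Dnajb1 are above 0, as is 1 of Hsp90aa1 (0.07), whose groups overlapped.

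The 10 genes had 26 probe sets, of which 22 were above the median level of all genes. With the construct in the DFO arms 21 of the 22 were lower without overlap and 1, of Hspa8, overlapped. In GFP+DFO against GFP 15 were lower, 6 higher and 1 overlapped, where 33.0% of all genes were lower and 30.9% higher without overlap, and the higher ones were those of Hspa1a, Hspa1b and Dnajb1. In GFP-PGC-1α+DFO against GFP-PGC-1α 14 were lower and 7 higher, beside 30.6% and 30.1% of all genes. Of the 4 dim probe sets, that of Cryab read 12.1 to 24.9 intensity units and that of Hspa8 91.0 to 154, and they did not follow the brighter ones in each contrast.

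**Figure D4:**
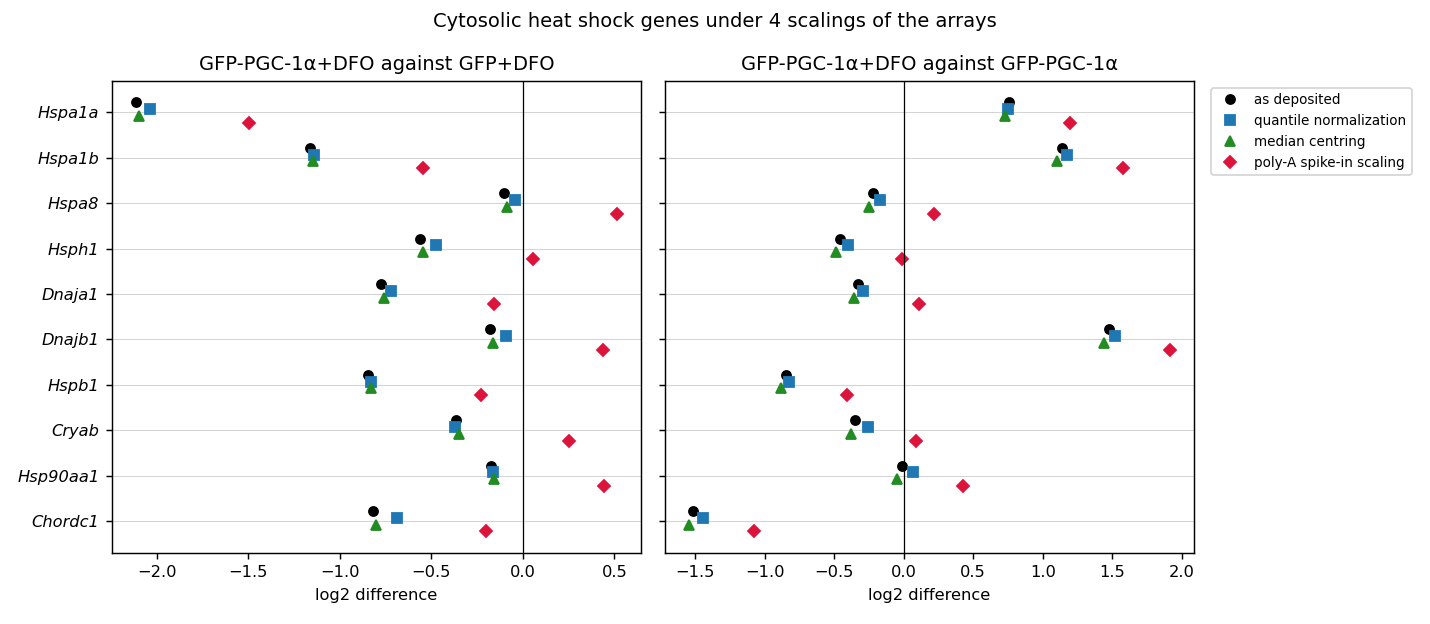
Log2 differences of the 10 genes under 4 scalings of the arrays: as deposited, quantile normalization, median centring and scaling to the poly-A spike-ins, for GFP-PGC-1α+DFO against GFP+DFO (left) and against GFP-PGC-1α (right). The first 3 lie close together, and the spike-in scale is shifted right by 0.62 on the left panel and 0.44 on the right, where Hspa1a, Hspa1b and Dnajb1 are above 0 on each scale.

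The nearest relatives of the 10 genes moved partly with them. The lists were chosen with earlier results of these data known, and counts of called genes stand beside the shares of all genes given above. Of the other cytosolic HSP70, HSP110 and HSP90 genes 7 were measured; Hsp90ab1 had no probe set under that symbol alone. With the construct in the DFO arms 2 fell and 1 rose: Hspa1l, an HSP70 gene next to Hspa1a, had -2.13 ± 0.45 (adjusted p = 0.0308), Hspa2 -0.67 ± 0.13 (0.0263) and Hspa14 0.46 ± 0.09 (0.0277). Hspa4, an HSP110 gene, fell with DFO in the GFP arms by 0.91 ± 0.10 (0.00278), while Hspa4l (0.65 ± 0.10, 0.00789) and Hspa2 (0.56 ± 0.13, 0.0363) rose. Between the construct arms Hspa2 (0.63 ± 0.13, 0.0242) and Hspa14 (0.48 ± 0.09, 0.0183) rose. Hspa2 had the direction of Hspa1b in each tested contrast. Of these calls only that of Hspa4 was kept in 8 of 8 fits without 1 array; the highest adjusted p reached 0.142 for Hspa1l, 0.149 for Hspa2 and 0.152 for Hspa14 with the construct, 0.0609 for Hspa4l and 0.175 for Hspa2 with DFO in the GFP arms, and 0.116 for Hspa2 and 0.0848 for Hspa14 in the construct arms. Scaling to the spike-ins left Hspa1l (adjusted p = 0.0583) and Hspa2 (0.837) uncalled with the construct, and Hspa4l (0.0855) and Hspa2 (0.137) uncalled with DFO in the GFP arms.

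Among 8 other J-domain genes of the cytosol, Dnajb4 (-1.15 ± 0.08, adjusted p = 0.00164) and Dnajb6 (-0.82 ± 0.09, 0.00528) fell and Dnajc2 (0.59 ± 0.12, 0.0267) rose with the construct in the DFO arms. Dnajb4 stayed called without each array, Dnajb6 ended without GFP+DFO replicate 1 (0.0523) and Dnajc2 in 6 of 8 fits (up to 0.147). Neither Dnajb4 (0.0756) nor Dnajb6 (0.369) was called on the spike-in scale. Dnaja4 had, with DFO in the GFP arms, -1.45 ± 0.14 (0.00197, kept in 8 of 8 fits) and Dnaja2 -0.38 ± 0.08 (0.0256, up to 0.150 without 1 array, and 0.203 on the spike-in scale), and none of the 8 rose. Between the construct arms 4 fell and 1 rose. The 4 became 0 without GFP-PGC-1α replicate 1, 1 without GFP-PGC-1α replicate 2 or either GFP+DFO array, 2 without either GFP array or GFP-PGC-1α+DFO replicate 2, and 0 on the spike-in scale.

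Of the 5 other small heat shock genes, 3 fell with the construct in the DFO arms, 4 fell with DFO in the GFP arms and all 5 fell with DFO in the construct arms. The count of 4 became 2 without either GFP+DFO array, and on the spike-in scale 2 fell with DFO in each pair of arms. Hspb3, a muscle small heat shock gene, had a log2 difference of -2.29 ± 0.24 with the construct (adjusted p = 0.00428), -3.31 ± 0.24 with DFO in the GFP arms (0.000896) and -4.30 ± 0.24 with DFO in the construct arms (0.000372). Hspb2 had -1.32 ± 0.11 (0.0022), -1.05 ± 0.11 (0.00251) and -1.55 ± 0.11 (0.00069) in the same order, and Hspb6 -1.16 ± 0.11 with the construct (0.00325). With DFO Hspb8 had -0.64 ± 0.10 in the GFP arms (0.00835) and Hspb7 -1.15 ± 0.12 in the construct arms (0.00215). Hspb8 ended without GFP+DFO replicate 1 or 2 (up to 0.0664) and the other named calls held in 8 of 8 fits. On the spike-in scale Hspb2 (-0.70, 0.0368) and Hspb3 (-1.68, 0.0164) were still called with the construct and Hspb6 was not (0.0648), nor were Hspb8 (0.0775) and Hspb7 (0.054) with DFO. The median of the list was -1.16, -0.64 and -1.15 in these contrasts, each below 0 on the spike-in scale too (-0.54, -0.64 and -0.71).

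Among 18 measured co-chaperones of HSP70 and HSP90, 4 rose and 4 fell with the construct in the DFO arms, and 1 rose and 11 fell with DFO in the GFP arms. The 4 that rose became 2 without GFP-PGC-1α+DFO replicate 1 or either GFP+DFO array, and on the spike-in scale 1 fell with the construct and 6 fell with DFO in the GFP arms. The 3 largest with the construct were Unc45b, the muscle myosin chaperone (-2.95 ± 0.23, adjusted p = 0.00206), Hspbp1, a nucleotide exchange factor of HSP70 (1.28 ± 0.11, 0.0023), and Ahsa2 (-1.10 ± 0.11, 0.00378), and each was kept in 8 of 8 fits, though Ahsa2 was not called on the spike-in scale (0.092). With DFO in the GFP arms Unc45b (-3.61 ± 0.23, 0.000647), Ahsa2 (-1.28 ± 0.11, 0.00149) and Cacybp (-1.14 ± 0.10, 0.0014) fell, and in the construct arms Unc45b (-5.13 ± 0.23, 0.000224), Ahsa2 (-1.70 ± 0.11, 0.000566) and Fkbp4 (-1.33 ± 0.11, 0.00128), all kept likewise. Bag3, a heat-inducible partner of HSPB8, had 990 mean intensity units with GFP-PGC-1α+DFO, 988 with GFP+DFO, 1042 with GFP-PGC-1α and 1067 with GFP, and passed in no contrast (adjusted p = 1, 0.549 and 0.676 in the order of the 3 tested contrasts). Of the heat shock factors, Hsf1 had no probe set under that symbol alone, and Hsf2 and Hsf4 were dim (Hsf2 12.1 to 31.0 intensity units) and not called.

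**Figure D5:**
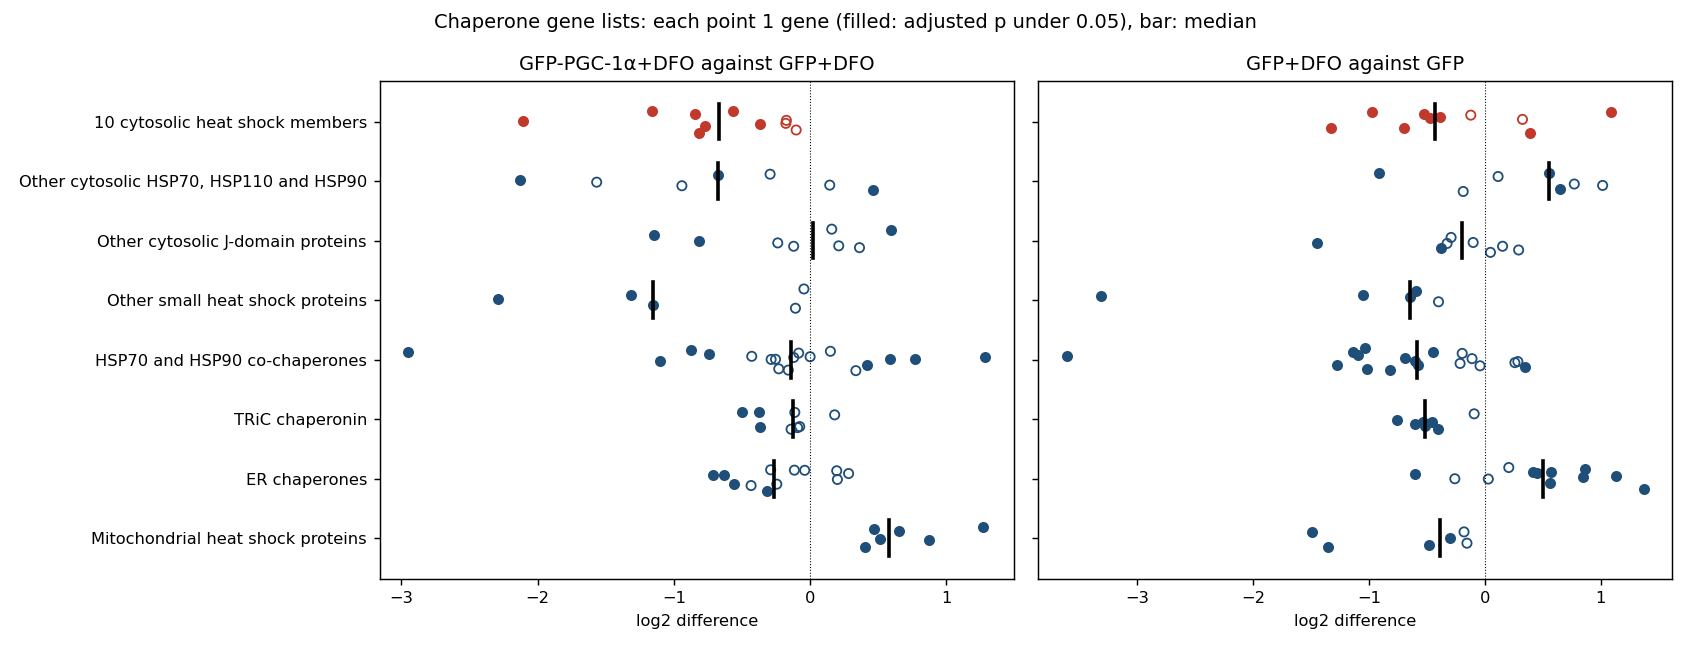
Log2 differences of the 10 cytosolic heat shock genes (red) and of 7 chaperone gene lists (blue), for GFP-PGC-1α+DFO against GFP+DFO (left) and GFP+DFO against GFP (right); each point is 1 gene, filled where limma's adjusted p was under 0.05, and each bar the median of a list. On the left 7 of the 10 red points are filled, all below 0, and all 6 mitochondrial points are filled above 0; on the spike-in scale 1 of the 10 is called and the 6 mitochondrial genes still are.

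The genes whose group means lay nearest to those of the Hspa1 pair were found by the Euclidean distance of their 3 log2 differences from GFP to the mean of Hspa1a and Hspa1b, over 9086 genes above the median level. They were Nmd3 (distance 0.445), Snx19 (0.649), Ager (0.789), Galnt7 (0.810) and Setd5 (0.860). Nmd3, an export adaptor of the large ribosomal subunit, had 2204 and 1949 intensity units with GFP-PGC-1α+DFO, 5829 and 5936 with GFP+DFO, 515 and 1049 with GFP-PGC-1α, and 4078 and 3917 with GFP. These genes were picked for this pattern over the same 8 arrays, so their levels are a description.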

How the data were processed

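The authors deposited 1 intensity per probe set and array, on a linear scale, and their probe summary, background correction and array scaling are not given in the sources used here. Between 968 and 1082 values per array were exactly 1. Of 45101 probe sets, the platform annotation gave 34945 a single symbol, 932 several and 9160 none, and 64 were controls. Log2 values were taken without a pseudocount, dim genes were kept, and each of 18193 genes was read by its probe set of highest mean. Group means were fitted to all 8 arrays at once with limma 3.58.1 (R 4.3.3), which left 4 residual degrees of freedom and added 1.3 prior ones. Tests were two-sided, with Benjamini-Hochberg adjustment over all genes and a threshold of 0.05; "called" means past it. Errors of log2 differences are SE. An exact permutation test of 2 arrays against 2 cannot go below p = 0.333, so p-values rest on limma's pooled spread, and the number of arrays limits precision. In simulated data made from GFP-PGC-1α+DFO against GFP+DFO over 18193 genes, 29 of 100 genes with a log2 change of 1 and 61 of 100 with 2 were recovered, and 6 of 17993 unchanged genes were called. Far fewer genes were changed there than the 3446 called in the measured contrast. The adjustment depends on that share, so the recovered counts do not give the power of the tests above.

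The 10 genes, the 10 gene lists (87 of 92 genes measured) and the contrasts were chosen with earlier results of these data known. Named were the 10 members, up to 3 called genes of largest change per list and contrast, the heat shock factors, Hsp90ab1, Bag3, Ppargc1a and the 5 nearest patterns. Contrasts that share arrays are given side by side. Alternatives were quantile normalization, median centring, poly-A spike-in scaling, the mean of all probe sets, leaving out probe sets that end in _x_at or _s_at, each probe set by itself, only genes above the median, flooring values at the 25th percentile, eBayes with trend and robust options, only the 4 arrays compared, the replicate number as a block, and each array left out. Running them on the lists was chosen after seeing the data. matplotlib 3.10.9 (Python 3.11.15) drew the figures.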

Additional observations from a re-analysis of the deposited data

Results flagged for a closer look

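Hspe1, the co-chaperonin of mitochondrial HSP60, was taken up here because the construct effect with DFO differed from that without DFO by a log2 value of 1.1188 (SE 0.12, limma adjusted p = 0.0475 for the interaction over all genes). Its mean intensity was 3021 with GFP-PGC-1α+DFO against 1253 with GFP+DFO, and 3564 with GFP-PGC-1α against 3209 with GFP. The log2 difference with the construct was 1.27 ± 0.09 with DFO (adjusted p = 0.0014) and 0.15 ± 0.09 without it (adjusted p = 0.321). Its probe set ends in _s_at and may read related transcripts. The interaction kept its sign under each alternative (1.00 to 1.56), but its call was lost in each of the 8 fits without 1 array (adjusted p 0.0624 to 0.237), with the replicate block (0.127), on the spike-in scale (0.143), with the mean of all probe sets (0.0777), when probe sets ending in _x_at or _s_at were left out (0.0536) and with every probe set on its own (0.0831).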

How the results depend on the processing

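Among the 10 heat shock genes, 7 were called in GFP-PGC-1α+DFO against GFP+DFO, 8 in GFP+DFO against GFP and 7 in GFP-PGC-1α+DFO against GFP-PGC-1α. With poly-A spike-in scaling these counts were 1, 3 and 3, and with only the 4 arrays compared they were 3, 5 and 4. The mean of all probe sets gave 5 in the second contrast. Leaving out 1 array gave 3 to 6, 4 to 8 and 4 to 5. Labels do not say that replicate numbers mark a shared batch, same-numbered arrays correlated by -0.11 to 0.22 in their deviations from group means, and with the replicate block the counts were 5, 8 and 4. On the spike-in scale the difference with the construct and DFO turned positive for Hsph1 (0.053), Cryab (0.25) and the uncalled Hspa8 (0.51), Dnajb1 (0.44) and Hsp90aa1 (0.44), and for Cct2 (0.24), Cct5 (0.25), Cct6a (0.12) and Dnajc3 (0.055), and the difference with DFO in the construct arms for Dnaja1 (0.11), Cryab (0.091), Hspa8 (0.22) and Hsp90aa1 (0.43). The last, -0.01 as deposited, was 0.067 with quantile normalization, 0.0021 with the mean of all probe sets, and -0.065 to 0.038 without 1 array. The mean of all probe sets turned Hspa14 to -0.21 with the construct and to -0.40 with DFO in the construct arms, where Heyl became 0.59, and Dnajc2 was -0.51 with the construct when probe sets ending in _x_at or _s_at were left out. The dimmest probe set of Hspa8 read 0.076 in GFP-PGC-1α against GFP, 0.43 in GFP+DFO against GFP and 0.34 in the construct arms. The dimmest of Cryab read 0.27, 0.52 and 0.045 in the same order. The other probe sets of Hsp90aa1 that turned had 0.064 with the construct and DFO (dim), 0.072 with DFO in the GFP arms, and 0.34 and 0.32 (dim) in the construct arms. Of the members' recomputed differences 153, 160 and 145 kept direction and side of the threshold in the 3 tested contrasts, 31, 30 and 33 lost the call in the same direction, and 5, 0 and 8 turned in sign. Over all genes the counts called were 1770 in GFP-PGC-1α against GFP and 3446, 4409 and 4662 in the other contrasts. In the first they were 508 on the spike-in scale (438 higher and 70 lower, against 902 and 868 as deposited), 940 with the mean of probe sets, 3524 above the median level, 3746 with trend and robust options, 1060 with the replicate block, 304 to 2094 without 1 array (304 to 709 without a GFP-PGC-1α, GFP or GFP+DFO array), and 0 by limma with only 4 arrays, where 4531 had an unadjusted p under 0.05. With the construct and DFO they were 2213 with the mean of probe sets, 861 with 4 arrays, and 2135, 873 and 1070 without GFP-PGC-1α+DFO replicate 2, GFP+DFO replicate 1 and GFP+DFO replicate 2. In GFP+DFO against GFP they were 2230 on the spike-in scale, and 2674, 2135 and 2069 without GFP replicate 1, GFP+DFO replicate 1 and GFP+DFO replicate 2. In the construct arms they were 7246 over every probe set, 1942 with 4 arrays, and 2637 and 3084 without GFP-PGC-1α replicate 1 and 2. The spike-in scale gave 3802 higher and 242 lower with the construct and DFO (1260 and 2186 as deposited), and 3398 higher and 803 lower in the construct arms (2079 and 2583). The shift built into the spike-in scale was -0.0004 in GFP+DFO against GFP. Within groups the 2 spike-in means were 8.11 and 7.97 with GFP-PGC-1α+DFO and 8.77 and 8.54 with GFP+DFO. They were 8.61 and 8.35 with GFP-PGC-1α and 8.68 and 8.63 with GFP. On that scale the SE in GFP-PGC-1α against GFP went from 0.08 to 0.18 for Hspa8 and from 0.32 to 0.38 for Hspa1a. Apart from this shift and spread of the spike-ins and the fewer arrays of some fits, the cause of these changes was not tested. Dim genes are limited by signal over background.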

Other observations

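The remaining lists held chaperones of the mitochondria, the endoplasmic reticulum and the cytosolic chaperonin. Of 6 mitochondrial heat shock genes, all rose with the construct in the DFO arms, against 6.93% of all genes called higher, with a median log2 difference of 0.58 (1.20 on the spike-in scale, where the 6 were also called). Hspe1 and Hspd1, which form the mitochondrial chaperonin, had 1.27 ± 0.09 (adjusted p = 0.0014) and 0.65 ± 0.09 (0.009), and Grpel1, the nucleotide exchange factor of mitochondrial HSP70, 0.87 ± 0.09 (0.00378). The count became 2 without GFP+DFO replicate 1 or 2, fits in which Hspd1 was lost (adjusted p up to 0.0722) and Hspe1 and Grpel1 were kept. With DFO in the GFP arms 4 of the 6 fell and none rose, and the median was -0.39. Trap1, the mitochondrial HSP90, had -1.49 ± 0.09 (0.000478) and Hspe1 -1.36 ± 0.09 (0.000606), both kept in 8 of 8 fits without 1 array, while Hspd1 had -0.48 ± 0.09 (0.0165, up to 0.104 without 1 array). The 4 became 2 without either GFP array or either GFP+DFO array, and 2 on the spike-in scale. Between the construct arms 2 fell with DFO, Trap1 (-1.07 ± 0.09, 0.00102) and Dnaja3 (-0.51 ± 0.08, 0.00914), a count of 1 without GFP-PGC-1α replicate 2 and of 0 on the spike-in scale.

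Most endoplasmic reticulum chaperones rose with DFO. Of 12 measured, 8 rose and 1 fell in the GFP arms, and 8 rose and none fell in the construct arms, with medians of 0.50 and 0.49. In the GFP arms Sdf2l1 had 1.37 ± 0.15 (adjusted p = 0.0028), Pdia4, a disulfide isomerase, 1.13 ± 0.13 (0.00371) and Dnajb9 0.87 ± 0.11 (0.00468), each kept in 8 of 8 fits without 1 array. Sdf2l1 had in the construct arms 1.22 ± 0.15 (0.00375, kept in 8 of 8), Hsp90b1, the HSP90 of this compartment, 0.77 ± 0.11 (0.00762, and 0.0513 without GFP-PGC-1α replicate 1) and Pdia4 0.63 ± 0.13 (0.023, up to 0.112). The number that rose in the GFP arms was 5 without GFP replicate 1, 4 without GFP+DFO replicate 1 or 2, and 4 on the spike-in scale. It was, in the construct arms, 1 without GFP-PGC-1α replicate 1, 3 without GFP-PGC-1α replicate 2, and 5 without GFP-PGC-1α+DFO replicate 1, GFP+DFO replicate 1 or GFP+DFO replicate 2. With the construct in the DFO arms 4 of the 12 fell and none rose, among them Hspa13 (-0.72 ± 0.08, 0.00519, and 0.0545 without GFP+DFO replicate 1), Pdia4 (-0.63 ± 0.13, 0.0304) and Dnajc3 (-0.56 ± 0.11, 0.0256). These 4 became 0 without GFP+DFO replicate 1 and 1 without GFP+DFO replicate 2 or any of the 4 construct arrays, and on the spike-in scale none fell and 3 rose.

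TRiC, the cytosolic chaperonin that folds actin and tubulin, has 8 subunit genes, all measured. In GFP+DFO against GFP 7 fell and none rose (median -0.52), with Cct3 at -0.76 ± 0.08 (adjusted p = 0.0027, kept in 8 of 8 fits without 1 array), Cct8 at -0.61 ± 0.10 (0.00992) and Cct4 at -0.53 ± 0.09 (0.0122). The 7 became 3 without GFP replicate 1 or 2, 2 without GFP+DFO replicate 1, 1 without GFP+DFO replicate 2 and 1 on the spike-in scale. Between the construct arms 4 fell, and 1 without either GFP-PGC-1α array. With the construct in the DFO arms 3 fell, and 0 without GFP+DFO replicate 1 or 2 and 1 without either GFP array, either GFP-PGC-1α array or GFP-PGC-1α+DFO replicate 2, while on the spike-in scale 1 rose and none fell. In GFP-PGC-1α against GFP 2 TRiC genes fell, as did 3 endoplasmic reticulum genes with 1 risen, and 2 mitochondrial genes rose, all 0 without GFP-PGC-1α replicate 1 or 2; the spike-in scale called 1 of these lists' genes, a mitochondrial one. The values of myotube markers, spike-ins and β-actin given above move with these contrasts too, and their part was not tested.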
